A study of Rattus norvegicus with 12 samples.

Results

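The 10 genes described here encode regulators of G protein signaling, or RGS proteins: Rgs2, Rgs3, Rgs4, Rgs5, Rgs8 and Rgs16 of the R4 subfamily, Rgs7 and Rgs9 of the R7 subfamily, and Rgs10 and Rgs14 of the R12 subfamily. They were taken from the rat expression array by name, as every probe whose gene name was one of these 10. The measured values were not used in taking the probes, but the members were chosen with earlier results of these data known. They account for 11 of 41012 probes and 10 of 35608 named genes, with 2 probes for Rgs4 and 1 probe for each of the other members. Messenger RNA of the dorsal striatum was measured on 12 one-color arrays, 3 rats for each of 4 groups.

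All 12 rats were males with a one-sided lesion of the left substantia nigra pars compacta made with 9 µg of 6-hydroxydopamine (6-OHDA), which kills dopamine neurons, so every comparison was made on a dopamine-depleted striatum and no unlesioned rats were among the arrays. Rats of the 6-OHDA group received no treatment for the lesion. Rats of the HFS group had their subthalamic nucleus stimulated at high frequency (130 Hz, 80 µs pulses, 60 µA) during 5 days. Rats of the DOPA group received L-DOPA at 25 mg/kg with benserazide at 12.5 mg/kg, in 2 injections per day 12 h apart for 19 days, a treatment known to provoke dyskinesia. Rats of the DOPA/HFS group received both, the stimulation running over the last 5 of the 19 days. All rats on L-DOPA were killed 12 h after the last injection, and stimulated rats as soon as the stimulation was switched off. Among these 4 groups, the methods describe an implanted electrode for the stimulated ones alone, so electrode and stimulation cannot be told apart, and the lesion is an acute toxin model of the dopamine loss of Parkinson's disease. In punched tissue, fewer cells of a type and less RNA per cell cannot be told apart.

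RGS proteins speed the hydrolysis of GTP on activated G protein alpha subunits and so shorten the signal of a receptor. The R4 proteins are small and act mainly on the Gi and Gq classes, the R7 proteins form complexes with the beta subunit Gnb5, and Rgs14 of the R12 subfamily also carries domains that bind small GTPases. In the striatum, the long splice form of Rgs9 is a hallmark of the medium spiny projection neurons, Rgs4 acts on muscarinic, glutamate and dopamine D2 receptor signaling, and Rgs2 is switched on as an immediate early gene by cyclic AMP and neuronal activity. Rgs5 is best known from pericytes, Rgs10 from microglia as well as neurons, and Rgs16 from cells under inflammatory or hormonal stimulation.

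In the RefSeq gene table of assembly GRCr8, 6 of the 10 members lie on chromosome 13, namely Rgs2, Rgs4, Rgs5, Rgs7, Rgs8 and Rgs16. Rgs5 and Rgs4 are direct neighbors there, with 0 protein-coding genes between them, and so are Rgs8 and Rgs16. A promoter was found for all 10 members. The 250 bases before the annotated start of Rgs4 and Rgs10, whose signals varied most between the groups, and of Rgs2, the activity-regulated member, are printed below 5′ to 3′ in the direction of transcription, with each half-site of the cyclic AMP response element, TGACG on either strand, in capitals. All 3 lie on the minus strand of GRCr8.
Rgs4, chr13:84475885-84476134: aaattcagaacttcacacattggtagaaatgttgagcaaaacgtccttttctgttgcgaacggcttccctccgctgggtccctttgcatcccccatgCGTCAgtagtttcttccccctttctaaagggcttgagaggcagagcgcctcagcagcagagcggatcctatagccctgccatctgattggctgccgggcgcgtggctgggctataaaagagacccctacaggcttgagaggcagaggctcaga
Rgs10, chr1:192418078-192418327: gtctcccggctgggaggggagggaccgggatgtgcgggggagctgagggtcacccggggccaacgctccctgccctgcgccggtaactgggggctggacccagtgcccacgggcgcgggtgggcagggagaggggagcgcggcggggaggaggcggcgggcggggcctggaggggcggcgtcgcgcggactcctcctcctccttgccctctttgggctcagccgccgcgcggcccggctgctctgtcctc
Rgs2, chr13:58352667-58352916: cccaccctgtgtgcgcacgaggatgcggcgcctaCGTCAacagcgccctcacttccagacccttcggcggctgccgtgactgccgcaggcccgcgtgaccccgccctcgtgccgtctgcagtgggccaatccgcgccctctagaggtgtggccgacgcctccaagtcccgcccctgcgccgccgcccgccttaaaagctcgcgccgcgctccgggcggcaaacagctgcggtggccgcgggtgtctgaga

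The half-site stood 153 bases before the start of Rgs4, 216 bases before that of Rgs2 and 29 bases before that of Rgs3, and these were the 3 members whose window held it. Of all 33469 rat promoters searched over the same length, 18.2% held it. The full element TGACGTCA, which contains the half-site on both strands, was in none of the 10 windows and in 1.59% of all promoters. The AP-1 motif TGANTCA was likewise in none, against 6.34% of all promoters. GC content was 54.4% for Rgs4 and Rgs5, 72.4% for Rgs2, 77.2% for Rgs7 and 77.6% for Rgs10. These matches describe the printed letters and say nothing of which factors bind there.

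Of the 10 members, 9 passed the filter on dim probes, which asked for a spot well above background on at least 40% of the arrays, and each of these 9 was well above background on all 12 arrays. Rgs16 failed it, since its spot was at background on each of the 12 arrays. Its log2 signal, between 2.76 and 3.55, is only a bound, and no fold change is given for it. The spots of Rgs8 and Rgs9 were marked as outliers on the array of DOPA/HFS replicate 3, so these genes have 2 values in that group and 11 in all. That array had 4175 outlier spots, against 2 to 25 on each of the others. The 13 genes of medium spiny projection neurons that were tested, Drd1 and Ppp1r1b among them, were each well above background on all 12 arrays, which shows that these markers were present and sets no level against another tissue. Genes of the choroid plexus, the epithelium of the ventricles, stood apart: the 7 measured on every array summed to 9868 to 95000 in the HFS arrays and 3266 to 6158 in the 6-OHDA arrays, with 20290 in DOPA replicate 3.

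None of the 9 members passed the threshold in any comparison. The threshold was a Benjamini-Hochberg adjusted p under 0.1 from limma over the 20398 genes tested, together with a fold over 1.2 or under 0.8. For DOPA against 6-OHDA it was passed by 1 gene of all those tested (0.0049%), and for HFS against 6-OHDA and DOPA/HFS against 6-OHDA by none (0%). The members' log2 values are therefore described below with their errors, and a difference between groups is given as a size with its interval and not as a change. The plot of the members' signals shows how far the arrays of the groups lay apart.

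**Figure D1:**
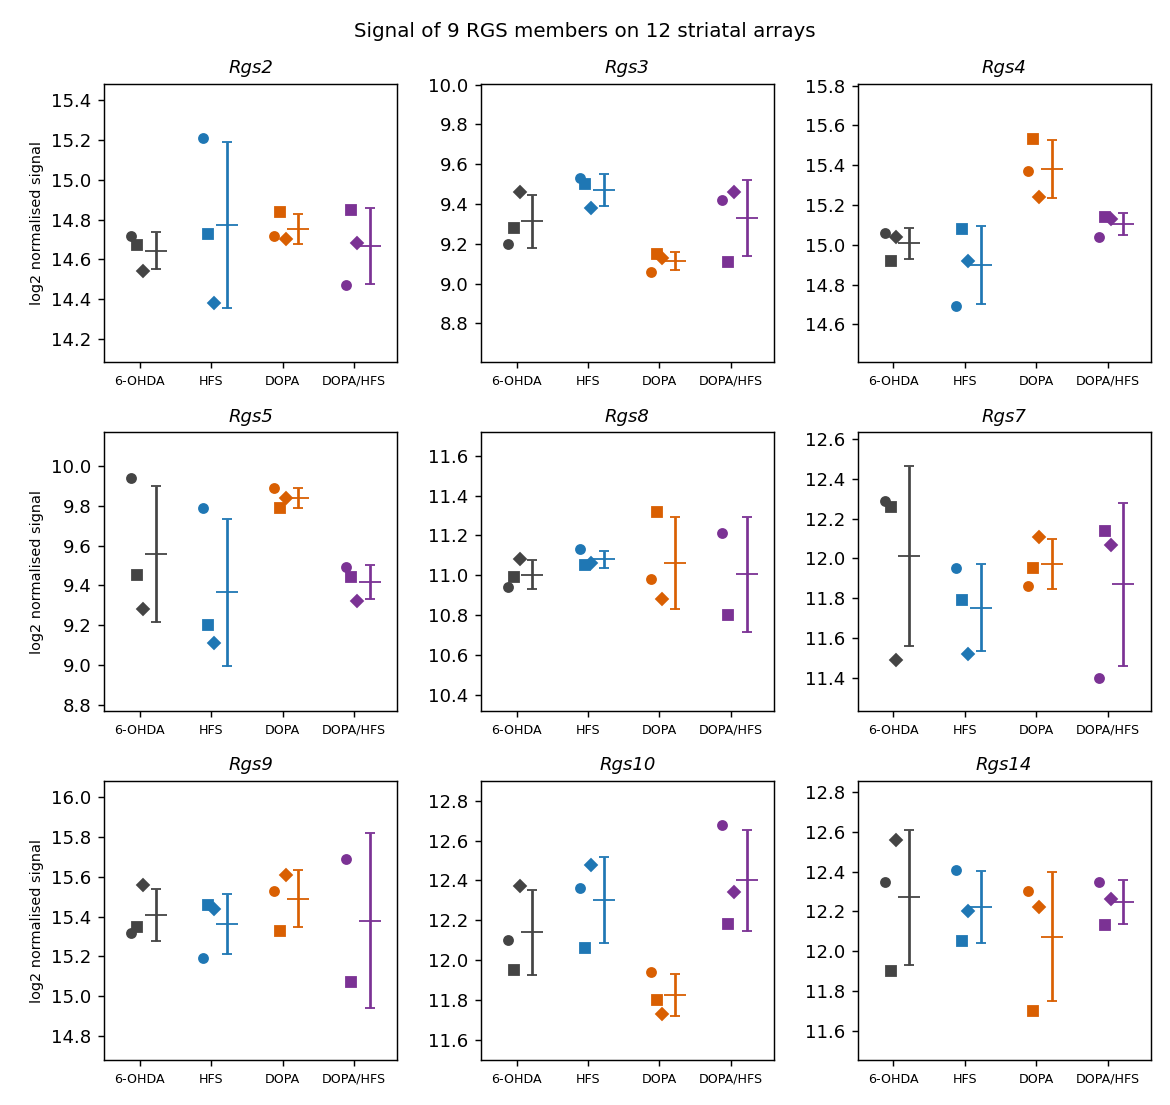
Log2 normalized signal (y axis, each panel spanning the same height of 1.4 log2 units) of the 9 RGS members above background in the 4 groups (x axis). Points are single arrays, circles for replicate 1, squares for replicate 2 and diamonds for replicate 3, and the horizontal tick with its bar is the mean ± SD. The 3 DOPA arrays lay above all 6-OHDA arrays for Rgs4 and below all of them for Rgs3 and Rgs10.

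In the comparison of L-DOPA alone with untreated lesioned rats, the signal of Rgs4 was 1.30-fold that of the 6-OHDA group, and the log2 differences of Rgs10 and Rgs3 were -0.32 and -0.20, with intervals that include 0. For these 3 of the 9 members the 3 DOPA arrays did not overlap the 3 6-OHDA arrays, against 6.28% of all genes tested. At an unadjusted p under 0.05 there was 1 member, Rgs4, against 2.58% of all genes. The median log2 fold change of the 9 members was 0.06, beside -0.01 over all genes, with 5 above and 4 below 0.

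Rgs4, the R4 member that limits Gi and Gq signaling of striatal neurons, had a log2 signal of 15.06, 14.92 and 15.04 in the 6-OHDA arrays and of 15.37, 15.53 and 15.24 in the DOPA arrays. The lowest DOPA array stood above the highest 6-OHDA array. The difference was 0.37 on the log2 scale (SE 0.14, 95% interval 0.06 to 0.69), a 1.30-fold higher signal, with an unadjusted limma p of 0.0227 and an adjusted p of 1. The exact two-sided permutation p was 0.1, the smallest that 3 against 3 arrays can give. Comparing the arrays on the same slide, the DOPA array was higher on 3 of 3 slides, by 0.20 to 0.62. Rgs4 is also among the genes that the study listed for L-DOPA from these same arrays, so that listing is not independent evidence of its direction. The study also names Rgs4 among genes found in earlier microarray work on L-DOPA-induced dyskinesia, without stating a direction there.

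The probe used for Rgs4 was the brighter of a pair, and the dimmer probe gave a smaller difference. Its log2 signal was 12.13, 11.69 and 12.07 in the 6-OHDA arrays and 12.28, 11.98 and 12.23 in the DOPA arrays, and the groups overlapped. The difference was 0.20 (SE 0.18) at an adjusted p of 1 in limma, with the DOPA array higher on 3 of 3 slides by 0.15 to 0.29. Over the 12 arrays the signals of both probes had a Pearson r of 0.47 and a Spearman rho of 0.49, as a description across arrays that share slides. The mean of both probes differed by 0.29 (SE 0.14). The plot of both Rgs4 probes follows each slide across the groups.

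**Figure D2:**
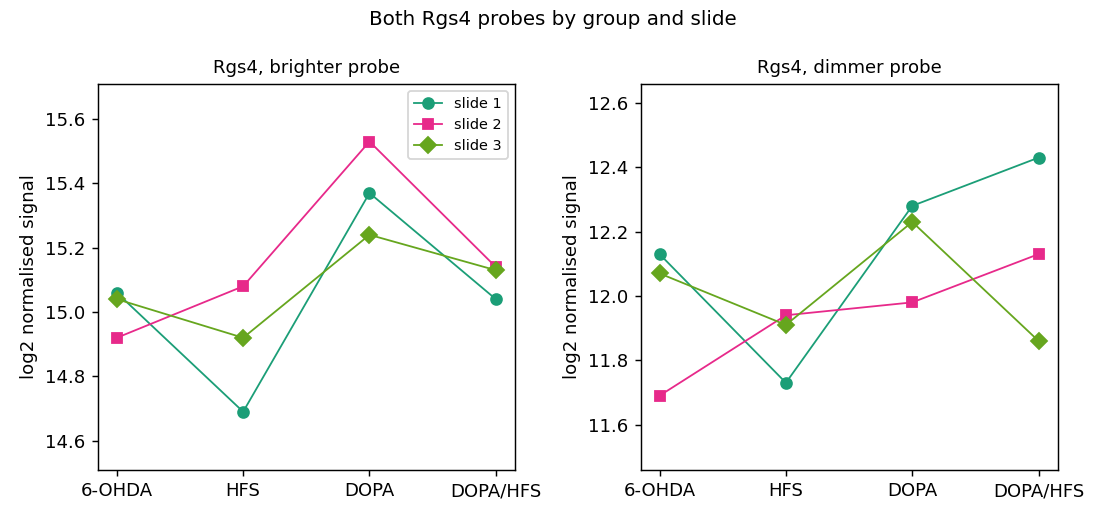
Log2 normalized signal (y axis) of the brighter (left) and the dimmer (right) Rgs4 probe in the 4 groups (x axis), with 1 line per slide. Both probes were higher in DOPA than in 6-OHDA on all 3 slides, whereas from DOPA to DOPA/HFS the brighter probe was lower on 3 slides and the dimmer probe on 1.

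Rgs10, a small R12 member that acts on Gi proteins, had a log2 signal of 12.10, 11.95 and 12.37 in the 6-OHDA arrays and of 11.94, 11.80 and 11.73 in the DOPA arrays. The highest DOPA array lay just under the lowest 6-OHDA array. The difference was -0.32 (SE 0.18, 95% interval -0.71 to 0.07), with an unadjusted limma p of 0.102 and an exact permutation p of 0.1. It was -0.20 without 6-OHDA replicate 3, the highest of its group. Without DOPA replicate 3, the DOPA array with the raised choroid plexus genes, it was -0.27, and the difference of Rgs4 was 0.45. Rgs10 is known as a microglial gene, and the summed signal of 10 microglial genes measured on every array overlapped between the groups, at 32790 to 39680 in 6-OHDA and 31410 to 39640 in DOPA.

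Rgs3, an R4 member that also occurs in longer forms with added domains, had a log2 signal of 9.20, 9.28 and 9.46 in the 6-OHDA arrays and of 9.06, 9.15 and 9.13 in the DOPA arrays. Here too no DOPA array reached the lowest 6-OHDA array. The difference was small, -0.20 (SE 0.14, 95% interval -0.50 to 0.11, unadjusted limma p = 0.188, exact permutation p = 0.1), and was -0.12 without 6-OHDA replicate 3.

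The other members overlapped between DOPA and 6-OHDA. Rgs9, the striatal R7 member that limits D2 and opioid receptor signaling, had a log2 signal of 15.32, 15.35 and 15.56 in the 6-OHDA arrays and of 15.53, 15.33 and 15.61 in the DOPA arrays. Its difference of 0.08 (SE 0.18) had a 95% interval of -0.33 to 0.49. Its outlier spot on DOPA/HFS replicate 3 was also saturated.

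Rgs2, the activity-regulated R4 member, had a log2 signal of 14.72, 14.67 and 14.54 in the 6-OHDA arrays and of 14.72, 14.84 and 14.70 in the DOPA arrays, a difference of 0.11 (SE 0.20). Rgs5 differed by 0.28 (SE 0.21), with 3 DOPA arrays between 9.79 and 9.89 and the 6-OHDA arrays between 9.28 and 9.94, and the difference was 0.47 without 6-OHDA replicate 1 and 0.14 without 6-OHDA replicate 3. Rgs14, the R12 scaffold best known from hippocampal neurons, differed by -0.20 (SE 0.21), and by -0.38 to -0.01 with 1 array left out, the extremes being without 6-OHDA replicate 2 and without DOPA replicate 2. Rgs8, an R4 member best known from cerebellar Purkinje cells, differed by 0.06 (SE 0.16), and Rgs7, the R7 member that acts on Go, by -0.04 (SE 0.25). Within slides, Rgs14 was lower in the DOPA array on 3 of 3 slides, by 0.06 to 0.33, whereas Rgs7 ran from -0.43 to 0.63. The half-width of the 95% interval in a comparison of 3 against 3 arrays was 0.30 for Rgs3 and 0.31 for Rgs4, the tightest members, and 0.56 for Rgs7, the widest. These correspond to folds of 1.24 and 1.47.

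**Figure D3:**
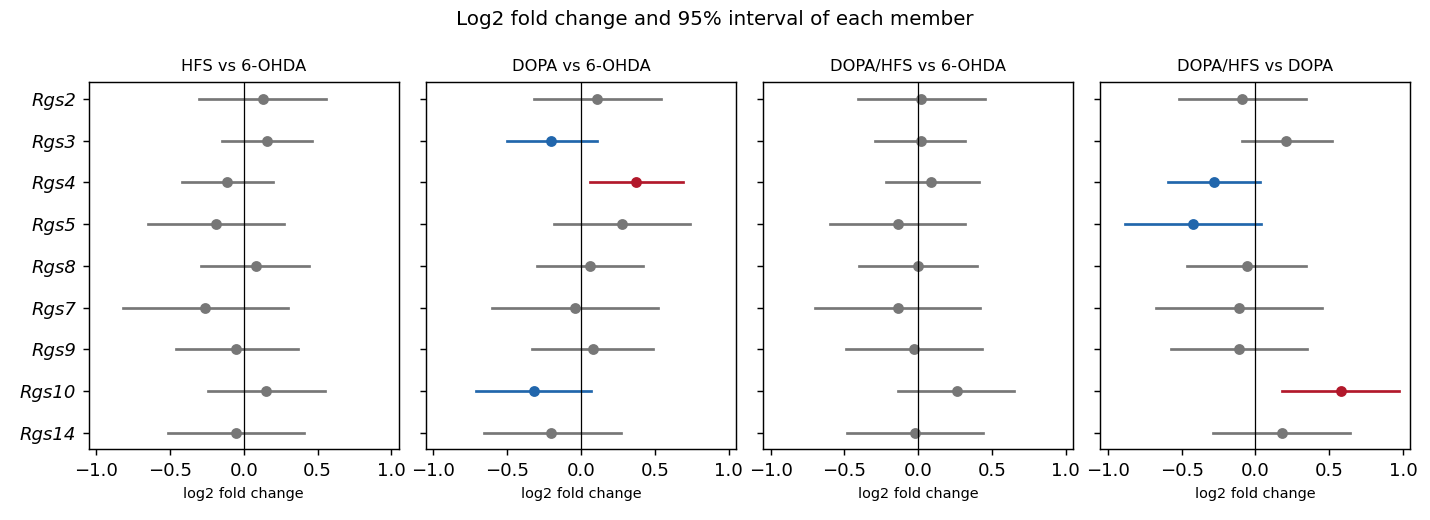
Log2 fold change (x axis, points) with its 95% interval (lines) of the 9 members (rows) in 4 comparisons (panels). Red marks a member whose first group lay wholly above the second, blue one wholly below, and gray an overlap. The intervals leave out 0 for Rgs4 in DOPA against 6-OHDA and for Rgs10 in DOPA/HFS against DOPA.

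For HFS against 6-OHDA, no member separated the groups, against 5.14% of all genes tested, and none had an unadjusted p under 0.05, against 2.34% of all genes. The log2 fold changes ran from -0.26 (SE 0.25) for Rgs7 to 0.16 (SE 0.14) for Rgs3, and the lowest unadjusted limma p was 0.284, that of Rgs3. The Rgs7 difference was -0.52 without 6-OHDA replicate 3 and -0.12 without 6-OHDA replicate 1. Rgs10 was higher in the HFS array on 3 of 3 slides, by 0.10 to 0.26, for a difference of 0.15 (SE 0.18). Rgs5 was lower in the HFS array on 3 of 3 slides, by 0.15 to 0.25, for a difference of -0.19 (SE 0.21), which was 0.00 without 6-OHDA replicate 1 and -0.40 without HFS replicate 1.

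Rgs2 varied more among the HFS rats than in any other group. Its log2 signal was 15.21, 14.73 and 14.38 in the HFS arrays, an SD of 0.42, against SDs of 0.08 to 0.19 in the other groups. HFS replicate 1 was the highest and HFS replicate 3 the lowest of all 12 arrays. HFS replicate 1 also had the highest summed signal of the 15 immediate early genes measured, 120300, whose lowest was 32460 in DOPA/HFS replicate 1. Over the 12 arrays the mean log2 signal of these genes and Rgs2 had an r of 0.35 and a rho of 0.18, and r was 0.08 without the 2 arrays farthest from the median of the list. The part of choroid plexus tissue in the values of the HFS arrays was not tested.

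With both treatments, the 95% intervals of all 9 members against 6-OHDA included 0, and they reached from -0.70 for Rgs7 to 0.65 for Rgs10. No member of DOPA/HFS separated from 6-OHDA, against 5.07% of all genes tested, and none had an unadjusted p under 0.05, against 2.75%. The log2 fold changes ran from -0.14 (SE 0.21) for Rgs5 and -0.14 (SE 0.25) for Rgs7 to 0.26 (SE 0.18) for Rgs10. Rgs4 had a log2 signal of 15.04, 15.14 and 15.13 in the DOPA/HFS arrays, which overlapped the 6-OHDA arrays, for a difference of 0.09 (SE 0.14, 95% interval -0.22 to 0.41). For DOPA/HFS against HFS no member separated the groups either, against 7.12% of all genes, and none had an unadjusted p under 0.05, against 2.44%.

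The comparison of DOPA/HFS with DOPA asks what stimulation added in rats on L-DOPA, and its fold changes spanned the widest range of the 5 pairwise comparisons, from -0.42 to 0.58. In 3 of the 9 members the groups did not overlap, against 10.6% of all genes tested, with Rgs10 above and Rgs4 and Rgs5 below. At an unadjusted p under 0.05 there was 1 member, Rgs10, against 3.78% of all genes, and 0% of the genes were called. This comparison shares its DOPA arrays with that of DOPA against 6-OHDA, so the level of the DOPA group enters both with opposite sign.

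Rgs10 had a log2 signal of 12.68, 12.18 and 12.34 in the DOPA/HFS arrays, all above the highest DOPA array at 11.94. The difference was 0.58 (SE 0.18, 95% interval 0.18 to 0.97), a 1.49-fold higher signal, with an unadjusted limma p of 0.00807, an adjusted p of 1 and an exact permutation p of 0.1. It was higher on 3 of 3 slides, by 0.38 to 0.74. It ranged from 0.44 without DOPA/HFS replicate 1 to 0.69 without DOPA/HFS replicate 2. The mean log2 signal of the microglial genes was 10.67 to 10.72 in DOPA/HFS and 10.46 to 10.75 in DOPA, so the groups overlapped on that list. The summed signal of 6 oligodendrocyte genes overlapped as well, at 187700 to 217400 in DOPA/HFS and 195400 to 211900 in DOPA. Over the 12 arrays Rgs10 had an r of 0.40 and a rho of 0.55 with the mean log2 signal of these 6 genes. With the microglial genes r was 0.17 and rho 0.05, and with the choroid plexus genes 0.16 and 0.22. Without the 2 arrays farthest from each median, r was 0.16, -0.26 and -0.35 in turn. The part of cell content in the Rgs10 values was not tested.

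Rgs5, the pericyte-associated R4 member, had a log2 signal of 9.49, 9.44 and 9.32 in the DOPA/HFS arrays, all below the lowest DOPA array at 9.79. The difference was -0.42 (SE 0.21, 95% interval -0.88 to 0.04, unadjusted limma p = 0.068, exact permutation p = 0.1), lower on 3 of 3 slides by 0.35 to 0.52. The summed signal of the 5 mural cell genes measured on every array did not separate the groups, at 5775 to 8363 in DOPA/HFS and 6822 to 7438 in DOPA. Of the 9 mural genes tested, 2 lay wholly below DOPA, Kcnj8 among them, and 0 above. Their median log2 fold change was -0.04. The summed signal of the 6 endothelial genes measured on every array did separate them in the direction of Rgs5. It was 6802 to 7541 in DOPA/HFS and 8202 to 9751 in DOPA, and DOPA also lay above the 7176 to 7404 of 6-OHDA. Most of this sum is the signal of 1 gene, Cldn5, at 12.65, 12.78 and 12.83 in DOPA/HFS and 13.00, 13.20 and 12.94 in DOPA on the log2 scale. Kdr, also bright, and Slco1a4 were outside the sum because their spots on DOPA/HFS replicate 3 were outliers. The other values of Kdr overlapped, at 11.46 and 12.35 in DOPA/HFS and 12.04, 12.47 and 11.99 in DOPA. The separation of the sums therefore holds for the 6 genes alone. Of the 8 endothelial genes tested, 2 lay wholly below DOPA and 0 above, while 10.6% of all genes did not overlap. On the mean log2 signal of the 6 genes the same groups overlapped, at 6.74 to 7.11 in DOPA/HFS, 7.06 to 7.25 in DOPA and 6.60 to 7.10 in 6-OHDA. Over the 12 arrays Rgs5 had an r of 0.24 and a rho of 0.39 with that mean, and an r of 0.50 without the 2 arrays farthest from its median. The part of vascular tissue in the Rgs5 values was not tested.

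In the same comparison Rgs4 differed by -0.28 (SE 0.14, 95% interval -0.59 to 0.03, unadjusted limma p = 0.0736, exact permutation p = 0.1), lower on 3 of 3 slides by 0.11 to 0.40. Its dimmer probe differed by -0.02 (SE 0.18) and the mean of both probes by -0.15 (SE 0.14), so this difference rests on the brighter probe. The summed signal of the 13 projection neuron genes was 447600 to 455900 in DOPA/HFS, all below the 458800 to 497800 in DOPA. In 6-OHDA they summed to 415900 to 484500, which overlapped DOPA. Bright genes weigh most in such a sum, and Pdyn is among the bright ones. Its log2 signal was 14.68, 15.87 and 15.81 in DOPA/HFS and 16.09, 16.21 and 15.98 in DOPA. Of the 13 genes, 2 lay wholly below DOPA and 0 above, while 10.6% of all genes did not overlap. The median log2 fold change of the 13 was -0.07, and their mean log2 signal overlapped at 13.90 to 14.20 and 14.01 to 14.23. Over the 12 arrays Rgs4 and that mean had an r of 0.34 and a rho of 0.19, and the part of projection neuron content in the Rgs4 values was not tested. Rgs3 differed by 0.21 (SE 0.14), with overlap.

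Pooling the arrays into 6 against 6 gave smaller errors and still called no member. For L-DOPA, given or not, Rgs4 differed by 0.29 (SE 0.10, 95% interval 0.07 to 0.51, exact two-sided permutation p = 0.00866, unadjusted limma p = 0.0145, adjusted p = 1), Rgs3 by -0.17 (SE 0.10) and Rgs10 by -0.11 (SE 0.13). For stimulation, given or not, Rgs10 differed by 0.37 (SE 0.13, 95% interval 0.09 to 0.64, exact p = 0.0238, unadjusted limma p = 0.0146, adjusted p = 0.911), Rgs5 by -0.31 (SE 0.15), Rgs4 by -0.20 (SE 0.10) and Rgs3 by 0.19 (SE 0.10). These Rgs4 values are those of the brighter probe. The dimmer Rgs4 probe differed by 0.24 (SE 0.13) for L-DOPA and by -0.06 (SE 0.13) for stimulation. The smallest exact p that 6 against 6 arrays can give is 0.00216. These permutations exchanged all arrays freely and held neither the other treatment nor the slide fixed. In each of these comparisons 1 of 9 members had an unadjusted p under 0.05, against 2.74% of all genes for L-DOPA and 4.36% for stimulation. The groups of 6 overlapped for all 9 members, while 0.142% of all genes did not overlap for L-DOPA and 0.172% for stimulation.

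An interaction term asked if the effect of stimulation on a member depended on L-DOPA, and no member passed. The interaction was 0.42 for Rgs10 (SE 0.25, 95% interval -0.13 to 0.98), the largest of the 9, and -0.17 for Rgs4 (SE 0.20, 95% interval -0.61 to 0.27). For the dimmer Rgs4 probe the interaction had the other sign, at 0.09 (SE 0.26). At an unadjusted p under 0.05 there were 0 members, against 1.98% of all genes. Across all 4 groups at once, the limma F test placed Rgs4 at rank 371 and Rgs10 at rank 460 of 20398 genes, Rgs3 at 1881 and Rgs5 at 2113, and the other 5 members at 14100 or lower. All had an adjusted p of 1.

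The members did not move as a block. Over the 12 arrays Rgs4 and Rgs3 had a Pearson r of -0.68 and Rgs4 and Rgs10 one of -0.59, whereas Rgs3 and Rgs10 had 0.67 and Rgs10 and Rgs14, both of the R12 subfamily, 0.57. The R7 members Rgs7 and Rgs9 had -0.58 over 11 arrays. The adjacent genes Rgs4 and Rgs5 had 0.33. These values describe arrays that share groups and slides. Rgs9 had an r of 0.62 with the mean log2 signal of the 13 projection neuron genes over 11 arrays, and 0.48 without the 2 arrays farthest from the median. Among the 18350 genes measured on all arrays, the gene with a symbol most like Rgs4 was Cpne9, at an r of 0.88, and the transcript S70690 stood at 0.92. For Rgs10 they were XM_221348 at 0.95 and LOC499224 at 0.94. With so many genes and 12 arrays, values of this height were reached for every member, from 0.87 for Rgs8 to 0.98 for Rgs7.

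Other parts of the same signaling system gave few differences of their own. Of the other RGS genes and partners, 8 passed the filter: Rgs6 and Rgs11 of the R7 subfamily, Rgs12, Rgs17, Rgs18, Rgs19, the obligate R7 partner Gnb5 and the R7 membrane anchor Gpr158. None of these 8 passed the threshold, had an unadjusted p under 0.05 or separated the groups in any comparison tested. Gnb5 differed by -0.04 (SE 0.16) in DOPA, -0.19 (SE 0.16) in HFS and -0.28 (SE 0.16) in DOPA/HFS against 6-OHDA. Rgs1, an R4 relative, was well above background on 1 array alone and was not tested.

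Of 12 G protein alpha genes, 13 beta and gamma genes, 19 effector genes and 21 striatal receptor genes tested, none was called in any comparison. Their median log2 fold changes in DOPA against 6-OHDA were 0.03 (alpha genes), 0.04 (beta and gamma genes), 0.00 (effectors) and -0.04 (receptors), beside -0.01 for all genes tested. An unadjusted limma p under 0.05 together with separated groups, at an exact permutation p of 0.1, was found in comparisons with 6-OHDA for 2 of the 21 receptors in DOPA, against 2.01% of all genes, for 1 in DOPA/HFS, against 1.76%, and for 0 in HFS, against 1.49%. Cnr1, the cannabinoid receptor of projection neurons, differed by 0.88 (SE 0.33) in DOPA, and Grm4, a glutamate receptor coupled to Gi, by -0.43 (SE 0.16). Chrm3, a muscarinic receptor coupled to Gq, differed by -0.77 (SE 0.32) in DOPA/HFS. All 3 had an adjusted p of 1. Adcy5, the main striatal adenylyl cyclase, differed by 0.11 (SE 0.17) in DOPA and Drd2 by 0.15 (SE 0.31), both with overlap.

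Direction was kept under every setting tried for the members that separated the groups. Where groups do not overlap, leaving out 1 array can hardly reverse the difference of their means. The 12 alternatives of that kind are therefore no test of direction. Rgs4 in DOPA against 6-OHDA ranged from 0.29 to 0.45 over 21 alternatives, Rgs10 in the same comparison from -0.41 to -0.20, and Rgs3 from -0.25 to -0.12. In DOPA/HFS against DOPA, Rgs10 ranged from 0.44 to 0.69, Rgs5 from -0.59 to -0.34 and Rgs4 from -0.35 to -0.15. The lowest adjusted p that any of these reached was 0.643, for Rgs10. With outlier spots kept, the median log2 fold change of all genes in DOPA/HFS against DOPA was itself -0.13. Member values under that setting are relative to this shift.

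**Figure D4:**
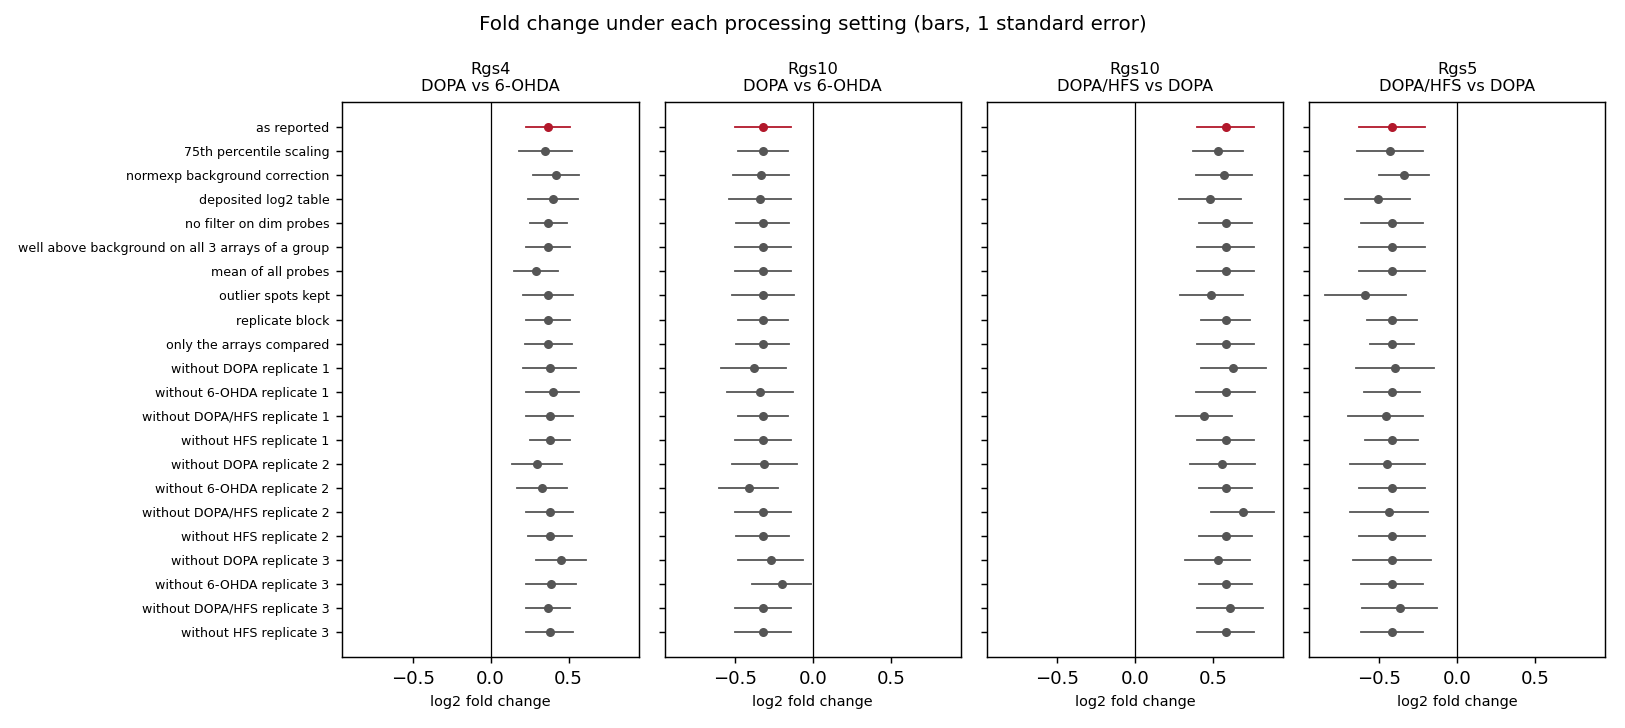
Log2 fold change (x axis, points, with bars of 1 standard error) of Rgs4, Rgs10 and Rgs5 in 4 panels under the reported setting (red) and each alternative (gray, rows). All values of each panel lie on 1 side of 0, from 0.29 to 0.45 for Rgs4 in DOPA against 6-OHDA and from 0.44 to 0.69 for Rgs10 in DOPA/HFS against DOPA. In all 4 panels the groups did not overlap as reported, so leaving out 1 array could hardly turn the sign.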

How the data were processed

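Rat striatal RNA was hybridized to 12 Agilent one-color arrays on 3 slides, 1 array per group on each, so array position and treatment cannot be told apart. The deposited scanner files hold the authors' background-subtracted intensity per spot from Agilent Feature Extraction 9.1 (per the labels). The authors' deposited table of log2 values, quantile normalized, served as an alternative. The members and gene lists were chosen with earlier results of these data known.

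Of 45018 spots, 1639 controls and outlier spots were left out, intensities were put on the log2 scale and quantile normalized, spots of a probe averaged, and the brightest probe of a gene kept if well above background on 40% of arrays. The study's SAM test was replaced by limma 3.58.1 (R 4.3.3) over all groups, with calls at an adjusted p below 0.1 plus a ratio above 1.2 or below 0.8. Single values also had exact two-sided permutation tests. The number of arrays limits precision, and p-values measure the spread between these arrays. Named genes were the members, their RGS relatives, list genes with an unadjusted p under 0.05 and separated groups, and the 2 genes most like each member. RefSeq accessions named 10735 probes through GRCr8. The scripts were tested on simulated data.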

Additional observations from a re-analysis of the deposited data

How the results depend on the processing

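No member was called in any of the 8 comparisons under any alternative, and this held with 75th percentile scaling or the deposited log2 table in place of quantile normalization, with normexp background correction, with looser or stricter filters on dim probes, with averaged probes, with outlier spots kept, with a replicate block, with fits restricted to the arrays compared (run for the 5 pairwise comparisons alone), with an adjusted p under 0.05, without a limit on fold, and without each of the 12 arrays in turn. The adjusted p under 0.05 and the lifted limit on fold could not have added a member, since no member's adjusted limma p was under 0.911 as reported. Over all 72 differences of the 9 members, 582 of 621 values under other settings and 789 of 864 with 1 array left out kept their sign, and none passed the threshold. The values that turned reached 0.30 in size. Rgs9 in DOPA/HFS rested on 2 arrays, and its difference ran from -0.35 to 0.28 against 6-OHDA and from -0.43 to 0.20 against DOPA, without DOPA/HFS replicate 1 and replicate 2 in turn. It was 0.00 with outlier spots kept and 0.03 with the replicate block against 6-OHDA, beside -0.03 as reported. Rgs2 in HFS against 6-OHDA was -0.01 under 75th percentile scaling. Rgs8 in DOPA against 6-OHDA was -0.06 under normexp and -0.06 in the deposited table. With 1 array left out, Rgs2 ranged from -0.09 to 0.32, Rgs5 from -0.40 to 0.00 and Rgs9 from -0.10 to 0.04 in HFS against 6-OHDA, Rgs7 from -0.30 to 0.10 and Rgs8 from -0.07 to 0.15 in DOPA against 6-OHDA, and Rgs5 from -0.28 to 0.05 and Rgs7 from -0.41 to 0.09 in DOPA/HFS against 6-OHDA. The cause was not tested.

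In the deposited table the median log2 fold change of all genes was -0.12 in DOPA/HFS against 6-OHDA and -0.11 in DOPA/HFS against DOPA, beside -0.01 in both as reported, so differences of DOPA/HFS in that table are relative to this shift. With outlier spots kept these medians were -0.14 and -0.13, and the same limit holds there. Over the alternatives, the count of all genes called ran from 0 to 13 for DOPA against 6-OHDA and from 1 to 30 for L-DOPA given or not, beside 1 in each as reported. Deviations of arrays with the same number, which share a slide, had correlations of -0.288 to 0.477 over 18 pairs (median 0.112), against -0.447 to 0.543 over 36 pairs of different number (median -0.069), and 5 of 12 arrays correlated best with one of their own number. The replicate block called no member and left Rgs4 in DOPA against 6-OHDA at 0.37 (SE 0.14) and Rgs10 in DOPA/HFS against DOPA at 0.58 (SE 0.16). With 3 arrays per group, differences within the intervals given for each member could not be seen. Probe sequences were not used here, so cross-hybridization was not examined.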
